A study of Mus musculus with 12 samples.

Results

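A set of 10 genes of the CC chemokine ligand family was described in myeloid-derived suppressor cells (MDSCs) sorted from mouse liver tumors: Ccl2, Ccl3, Ccl4, Ccl6, Ccl7, Ccl9, Ccl12, Ccl17, Ccl22 and Ccl24. They were taken by gene symbol from the expression tables, and all 10 were present among the 24346 symbols measured in each library. The 12 RNA-seq libraries came from wild-type female C57BL/6J mice, 6 to 8 weeks old, that carried Hepa 1-6 hepatoma cells injected into the liver and had more than 20% MDSCs in the blood. From day 10 after inoculation the mice received intraperitoneal vehicle, MS-275 or CXD101 daily for 10 days, each inhibitor at 5 mg/kg, and tumors were taken on day 21. MS-275 and CXD101 are small molecules that inhibit the class I histone deacetylases HDAC1, HDAC2 and HDAC3, enzymes that remove acetyl groups from histones. Monocytic MDSCs (M-MDSCs, CD11b+Ly-6ChiLy-6G-) and polymorphonuclear MDSCs (PMN-MDSCs), defined as CD11b+Ly-6CintLy-6G+, were isolated by sorting, which gave 6 groups of 2 libraries. The sources do not say whether the 2 libraries of a group came from separate mice or whether mice were pooled, so each p-value measures the spread between these libraries only. All animals carried the same transplanted tumor line, and tumor-free mice were not part of the comparison.

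CC chemokines are small secreted proteins, named for adjacent cysteines near their amino terminus, that draw leukocytes toward their source through G protein-coupled receptors. CCL2, CCL7 and CCL12 are ligands of CCR2 on monocytes. CCL3 and CCL4 are inflammatory attractants of monocytes and T cells, and CCL3, CCL6 and CCL9 act on CCR1. CCL17 and CCL22 bind CCR4, a receptor of regulatory and type 2 helper T cells, and CCL24 draws eosinophils through CCR3. Tumor myeloid cells are both targets and producers of these ligands.

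The genes lay in a few clusters of the mouse genome (coordinates from GENCODE vM21, build GRCm38, the same assembly as the mm10 build of the files). Ccl2 (chr11:82035571-82037453, plus strand) and Ccl7 (chr11:82045712-82047525, plus strand) were 8258 bp apart with no coding gene between them, and Ccl12 followed at chr11:82101845-82103400. Further along chromosome 11, after a gap of 1469518 bp lay Ccl9 (chr11:83572919-83578636, minus strand) and Ccl6 (chr11:83587882-83593087, minus strand), separated by 9245 bp with no coding gene between them. Ccl3 (chr11:83647844-83649355, minus strand) and Ccl4 (chr11:83662584-83664683, plus strand) came next, 13228 bp apart. Ccl22 (chr8:94745590-94751699, plus strand) and Ccl17 (chr8:94810453-94812036, plus strand) shared a cluster on chromosome 8 with Cx3cl1 between them. Ccl24 (chr5:135569937-135573049, minus strand) stood alone on chromosome 5. No stretch of 101 bases, the read length, was shared between a transcript of any of the 10 genes and a transcript of another gene. Ccl2 and Ccl6 are each overlapped on the opposite strand by another annotated gene, and how the authors' counting used strand is not given in the sources used here.

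Promoter sequence was printed for both members of each of 2 neighbouring pairs, Ccl17 with Ccl22, whose levels moved together, and Ccl6 with Ccl9, whose differences had opposite signs under MS-275. RefSeq windows (GRCm38.p6) were matched for 6 of the 10 genes, Ccl3, Ccl6, Ccl9, Ccl12, Ccl17 and Ccl22. Each sequence runs 5′ to 3′ on the strand of the gene and ends 1 base before the annotated GENCODE start. Capitals mark matches to any of 6 motifs searched on both strands.
Ccl17, chr8:94810203-94810452, plus strand: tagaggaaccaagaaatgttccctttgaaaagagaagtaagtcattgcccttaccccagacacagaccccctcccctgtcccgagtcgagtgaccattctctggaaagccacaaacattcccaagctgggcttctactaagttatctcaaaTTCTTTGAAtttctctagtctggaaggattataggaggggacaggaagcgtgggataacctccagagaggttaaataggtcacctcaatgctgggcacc
Ccl22, chr8:94745434-94745589, plus strand: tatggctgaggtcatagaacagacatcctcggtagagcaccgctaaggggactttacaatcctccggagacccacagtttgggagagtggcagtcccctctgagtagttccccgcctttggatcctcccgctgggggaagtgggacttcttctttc
Ccl6, chr11:83593088-83593337, minus strand: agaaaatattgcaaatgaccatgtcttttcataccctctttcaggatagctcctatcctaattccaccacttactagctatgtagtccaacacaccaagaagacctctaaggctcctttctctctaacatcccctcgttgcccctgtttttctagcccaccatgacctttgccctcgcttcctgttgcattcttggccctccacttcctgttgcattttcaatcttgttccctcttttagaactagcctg
Ccl9, chr11:83578637-83578886, minus strand: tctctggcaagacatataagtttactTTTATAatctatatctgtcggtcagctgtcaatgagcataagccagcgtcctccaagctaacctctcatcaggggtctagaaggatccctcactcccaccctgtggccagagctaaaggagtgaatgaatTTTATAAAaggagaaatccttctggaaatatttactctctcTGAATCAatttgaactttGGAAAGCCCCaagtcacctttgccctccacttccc
The motifs were a TATA box (TATAAA), a form of the NF-kB site (GGG, a pair of bases of any kind, then TTTCC), the AP-1 site (TGANTCA), the STAT site (TTCNNNGAA), a form of the C/EBP site (TTGCNNAA) and a form of the interferon response element (GAAA, a pair of bases of any kind, then GAAA). Among 32851 RefSeq windows of 250 bases upstream, they were found in 12.4%, 1.41%, 6.75%, 7.02%, 9.56% and 2.98%, respectively. The Ccl17 window held 1 match, a STAT form 99 to 91 bases before its end. The Ccl9 window held 5 matches, which were 3 TATA forms, 2 of them overlapping, an AP-1 form 53 to 47 bases before the end and an NF-kB form 35 to 26 bases before the end. No match stood in the 156 bases shown for Ccl22 or the 250 bases shown for Ccl6. These are matches of letters and were not tested for binding.

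Levels are given as FPKM, fragments per kilobase of transcript scaled to library depth, which allows genes of different length to be set side by side. Steps in the low FPKM values placed the depth at an estimated 9100000 to 11600000 reads in M-MDSC and 7600000 to 8900000 reads in PMN-MDSC libraries. Replicate libraries of a group correlated across genes at r from 0.995 to 0.996. A member was called when limma on log2(FPKM + 1) gave a Benjamini-Hochberg adjusted p below 0.05 over all genes tested and a fold change above 1.5. A gene entered the test when 2 or more libraries of the fit held it at 1 FPKM or above. Among the monocyte markers, Ccr2 was 147 and 137 FPKM in vehicle M-MDSCs and 40.7 and 35.7 in vehicle PMN-MDSCs. The neutrophil markers S100a8 and S100a9 took 1.78 to 4.28% of all FPKM in M-MDSC libraries. In PMN-MDSC libraries they took 10.2 and 13.7% under vehicle and 27.3 to 30.9% under the inhibitors. Of 8 hepatocyte and Hepa 1-6 markers, Ttr and Fgb were at 0 in every library and Alb was at most 0.0528 FPKM, whereas Afp, the fetal counterpart of albumin, was 1.04 to 2.29 FPKM. Trf, which encodes transferrin, was 38.8 to 62.7 FPKM in M-MDSC and 155 to 270.5 FPKM in PMN-MDSC libraries, and it was the only gene of this list called against vehicle (0.77 on the log2 scale under MS-275 in PMN-MDSCs, adjusted p = 3.26e-05).

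Ccl6 dominated the family. It supplied 79.4 to 90.1% of the summed FPKM of the 10 genes in each library. In vehicle M-MDSCs the order of mean levels was Ccl6, Ccl9, Ccl3, Ccl17, Ccl2, Ccl4, Ccl22, Ccl7, Ccl24 and Ccl12, and only Ccl17 and Ccl2 overlapped between neighbours (35.1 ± 9.53 and 32.5 ± 1.99 FPKM, SD, n = 2). In vehicle PMN-MDSCs the order was Ccl6, Ccl3, Ccl9, Ccl17, Ccl2, Ccl4, Ccl22, Ccl7, Ccl12 and Ccl24. There the libraries of Ccl2 and Ccl4 overlapped, as did those of Ccl12 and Ccl24. Under both inhibitors Ccl17 moved below Ccl4 in both subsets.

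**Figure D1:**
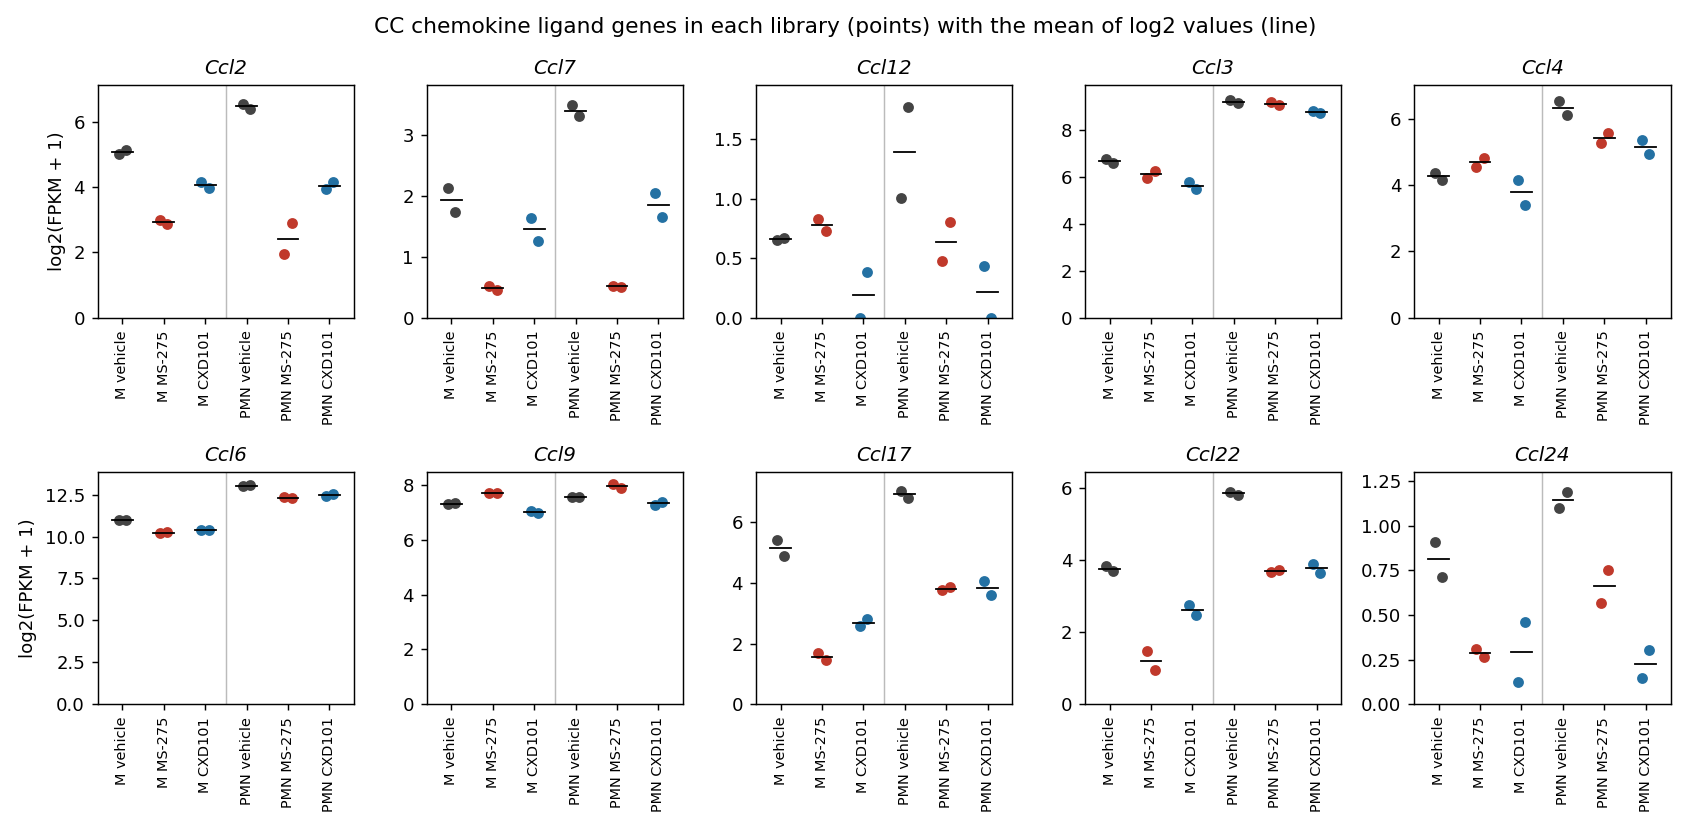
Level of each ligand gene as log2(FPKM + 1) in every library, with M-MDSCs on the left of each panel, PMN-MDSCs on the right and a line at the mean of the log2 values of each group. Ccl17, Ccl22 and Ccl2 stand highest in the vehicle libraries of each subset, while Ccl9 stays between 124 and 258 FPKM in all 12 libraries.

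The CCR4 ligands were lower under both inhibitors in both subsets. Ccl17 was 41.8 and 28.3 FPKM in vehicle M-MDSCs, 2.21 and 1.75 under MS-275, and 4.98 and 5.93 under CXD101. Its PMN-MDSC levels were 128 and 111 FPKM under vehicle, 12.6 and 13.5 under MS-275, and 15.7 and 11.1 under CXD101. The vehicle libraries stood above all treated libraries of their subset, with no overlap. Ccl17 fell by 3.58 on the log2 scale under MS-275 (SE 0.177, adjusted p = 4.49e-06) and by 2.46 under CXD101 (SE 0.177, adjusted p = 9.55e-05) in M-MDSCs. The corresponding falls in PMN-MDSCs were by 3.10 (SE 0.15, adjusted p = 6.07e-06) and by 3.08 (SE 0.15, adjusted p = 9.58e-06). Group means of FPKM were 17.7 and 6.42 times higher under vehicle than under MS-275 and CXD101 in M-MDSCs, and 9.16 and 8.92 times higher in PMN-MDSCs. In this bulk RNA, fewer cells of a type and less RNA per cell cannot be told apart.

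Ccl22 followed the same order. It was 13.3 and 11.97 FPKM in vehicle M-MDSCs, 1.77 and 0.948 under MS-275, and 5.80 and 4.54 under CXD101. In PMN-MDSCs it was 58.9 and 55.0 under vehicle, 11.9 and 12.3 under MS-275, and 13.9 and 11.5 under CXD101. As for Ccl17, no treated library reached a vehicle library of its subset. Ccl22 fell by 2.55 on the log2 scale under MS-275 (adjusted p = 2.26e-05) and by 1.15 under CXD101 (adjusted p = 0.00304) in M-MDSCs. It fell by 2.14 (adjusted p = 6.07e-06) and by 2.08 (adjusted p = 1.03e-05) in PMN-MDSCs. Across the 12 libraries Ccl17 and Ccl22 had a Pearson r of 0.958 on the log2 scale, a description over libraries that share treatments and subsets.

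The CCR2 ligands Ccl2 and Ccl7 were lower under MS-275 than under CXD101 in both subsets, as Ccl17 and Ccl22 were in M-MDSCs. Ccl2, the main monocyte attractant, was 31.1 and 33.9 FPKM in vehicle M-MDSCs, 6.85 and 6.31 under MS-275, and 16.7 and 14.5 under CXD101. The PMN-MDSC libraries held 92.7 and 81.9 under vehicle, 2.81 and 6.36 under MS-275, and 14.3 and 16.6 under CXD101. The 3 treatments did not overlap in either subset and kept the order vehicle, CXD101, MS-275. In M-MDSCs Ccl2 fell by 2.14 on the log2 scale under MS-275 (SE 0.0952, adjusted p = 3.09e-06) and by 1.01 under CXD101 (SE 0.0952, adjusted p = 0.000312). In PMN-MDSCs it fell by 4.06 (SE 0.263, adjusted p = 2.04e-05) and by 2.43 (SE 0.263, adjusted p = 0.000328). Vehicle means were 4.93 times those under MS-275 in M-MDSCs, and 19.0 times in PMN-MDSCs.

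Ccl7, the neighbour of Ccl2 and a broader monocyte attractant, was 3.35 and 2.33 FPKM in vehicle M-MDSCs, 0.433 and 0.365 under MS-275, and 2.12 and 1.38 under CXD101. Its PMN-MDSC levels were 10.2 and 8.90 under vehicle, 0.438 and 0.415 under MS-275, and 3.13 and 2.15 under CXD101. The MS-275 values corresponded to an estimated 3 and 2 reads in M-MDSCs and 2 and 2 reads in PMN-MDSCs. Ccl7 fell by 1.44 under MS-275 in M-MDSCs (adjusted p = 0.000499), and by 2.88 (adjusted p = 1.22e-05) and 1.55 (adjusted p = 0.000312) under MS-275 and CXD101 in PMN-MDSCs. Under CXD101 in M-MDSCs the log2 difference was -0.48 (95% CI -0.92 to -0.05, adjusted p = 0.101), which did not pass. These differences are on the log2(FPKM + 1) scale, which understates the change of a gene at this level. Ccl2 and Ccl7 had a Pearson r of 0.949 across the 12 libraries.

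Ccl12, the third CCR2 ligand of the cluster, was near the limit of detection. It was 0.570 and 0.594 FPKM in vehicle M-MDSCs, 0.774 and 0.652 under MS-275, and 0 and 0.308 under CXD101, and it was not tested there because no library reached 1 FPKM. The PMN-MDSC values were 1.01 and 2.42 under vehicle, 0.391 and 0.742 under MS-275, and 0.349 and 0 under CXD101. The values corresponded to an estimated 0 to 7 reads per library, and a count of 0 allows up to 3 reads, or 0.868 FPKM in the M-MDSC and 1.14 FPKM in the PMN-MDSC library listed at 0. In PMN-MDSCs Ccl12 fell by 1.17 on the log2 scale under CXD101 (adjusted p = 0.0128), and it had passed the filter on low values only through the vehicle libraries. Without PMN-MDSC CXD101 replicate 2 that call was lost, with an adjusted p of 0.0767. The log2 difference under MS-275 was -0.75 (adjusted p = 0.0583).

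Ccl3 and Ccl4, which encode macrophage inflammatory proteins, differed from the genes above. Ccl3 was 105 and 93.9 FPKM in vehicle M-MDSCs, 60.8 and 73.9 under MS-275, and 53.2 and 43.4 under CXD101. Among PMN-MDSCs the levels were 602 and 554 under vehicle, 573 and 527 under MS-275, and 434 and 411 under CXD101. Vehicle and MS-275 libraries of PMN-MDSCs overlapped, whereas the CXD101 libraries were below both. Ccl3 fell by 1.03 on the log2 scale under CXD101 in M-MDSCs (adjusted p = 0.000808). Its difference under MS-275 in M-MDSCs was -0.56 (adjusted p = 0.00559) and under CXD101 in PMN-MDSCs -0.45 (adjusted p = 0.00177), both short of the fold change limit. Under MS-275 in PMN-MDSCs it was -0.07 (95% CI -0.24 to 0.09, adjusted p = 0.43).

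Ccl4 was 19.5 and 16.9 FPKM in vehicle M-MDSCs, 22.6 and 27.1 under MS-275, and 16.8 and 9.66 under CXD101. Neither difference from vehicle passed in M-MDSCs (0.42, adjusted p = 0.13, and -0.48, adjusted p = 0.139). In PMN-MDSCs Ccl4 was 91.8 and 68.6 under vehicle, 38.0 and 46.6 under MS-275, and 40.2 and 29.97 under CXD101. There it fell by 0.90 under MS-275 (adjusted p = 0.00383) and by 1.17 under CXD101 (adjusted p = 0.0015). Thus Ccl3 and Ccl4, which are neighbours on the chromosome, were not called together in any comparison of an inhibitor with vehicle. Under CXD101 both had negative differences in both subsets, and their Pearson r across the 12 libraries was 0.870.

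Ccl6 and Ccl9, which are CCR1 ligands made by mouse myeloid cells, are neighbours that differed in direction under MS-275. Ccl6 was 2014 and 2059 FPKM in vehicle M-MDSCs, 1185 and 1229 under MS-275, and 1361 and 1343 under CXD101. PMN-MDSCs held 8273 and 8539 under vehicle, 5183 and 5019 under MS-275, and 5564 and 5884 under CXD101. Vehicle libraries were above treated libraries in both subsets. Ccl6 fell by 0.75 (SE 0.0524, adjusted p = 2.24e-05) and by 0.59 (SE 0.0524, adjusted p = 0.000237) under MS-275 and CXD101 in M-MDSCs, and by 0.72 (SE 0.0679, adjusted p = 0.000106) under MS-275 in PMN-MDSCs. Under CXD101 in PMN-MDSCs the difference of -0.55 (adjusted p = 0.000552) was below the fold change limit. Both CXD101 values lay close to that limit. The M-MDSC call was lost with median-of-ratios scaling, without M-MDSC vehicle replicate 2 and without M-MDSC CXD101 replicate 2, at log2 differences of -0.58, -0.57 and -0.58, and the PMN-MDSC difference was called at -1.04 with quantile normalization and at -0.60 without PMN-MDSC CXD101 replicate 2. E230016K23Rik, the transcript annotated opposite Ccl6, was named because of this overlap and went from 2.91 and 3.80 FPKM in vehicle M-MDSCs to 6.43 and 7.27 under MS-275, and from 16.4 and 19.3 in vehicle PMN-MDSCs to 27.8 and 27.1. Under CXD101 it was 4.17 and 3.89 FPKM in M-MDSCs and 19.6 and 19.3 in PMN-MDSCs.

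Ccl9 was 155 and 161 FPKM in vehicle M-MDSCs, 209 and 208 under MS-275, and 130.2 and 124 under CXD101. In PMN-MDSCs it was 189 and 186 under vehicle, 258 and 237 under MS-275, and 154 and 163 under CXD101. The MS-275 libraries stood above and the CXD101 libraries below the vehicle libraries in both subsets, with no overlap. The log2 differences from vehicle were 0.40 (adjusted p = 0.000635) and -0.31 (adjusted p = 0.00548) in M-MDSCs, and 0.40 (adjusted p = 0.00154) and -0.24 (adjusted p = 0.0206) in PMN-MDSCs. All 4 had an adjusted p below 0.05 and stayed below the fold change limit, so Ccl9 was not called against vehicle.

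Ccl24, the CCR3 ligand, was low throughout. It was 0.876 and 0.639 FPKM in vehicle M-MDSCs, 0.238 and 0.200 under MS-275, and 0.0894 and 0.379 under CXD101, and it was not tested in that subset. PMN-MDSC libraries held 1.14 and 1.28 under vehicle, 0.481 and 0.684 under MS-275, and 0.107 and 0.236 under CXD101. The PMN-MDSC values corresponded to an estimated 11 and 12 reads under vehicle and 1 to 6 reads under the inhibitors. Ccl24 fell by 0.91 under CXD101 (adjusted p = 0.00432) and had a difference of -0.48 under MS-275 (adjusted p = 0.0491, below the fold change limit). Like Ccl12, it entered this test only through its vehicle libraries. Its receptor gene Ccr3 was at most 1.49 FPKM in any library. Of 8 eosinophil markers, 6 were tested in M-MDSCs, with 4 higher under MS-275 and 5 under CXD101, beside 10.1% and 5.14% of all genes. Ear1, 1 of those 6, had met the filter only with its treated libraries, which favours a higher call. In PMN-MDSCs 7 were tested, and 1 rose and 1 fell under each inhibitor, beside 14.6% and 11.9% of all genes higher and 14.2% and 9.54% lower. The 1 that rose under MS-275 there was Ccr3, which had entered only through treated libraries. The sum of the 8 markers was 160 to 197 FPKM in vehicle M-MDSCs and 377 to 418 in treated ones. In PMN-MDSCs it went from 341 to 377 up to 383 to 491. Ear6 (201 and 228 FPKM under vehicle) and Ear2 (75.9 and 80.9) made up most of that PMN-MDSC sum. There Prg2 went down, from 34.5 and 34.7 FPKM to 19.3 and 28.3 under MS-275 and 27.7 and 19.2 under CXD101. Epx went from 7.004 and 4.27 FPKM to 2.21 and 2.19 under MS-275 and 2.48 and 2.27 under CXD101. The means of the rest of the list were above vehicle under both inhibitors.

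In total, 5 of the 8 members tested were lower under MS-275 in M-MDSCs, where 7.32% of all genes tested were called lower, and 6 of 10 in PMN-MDSCs, where 14.2% were. Under CXD101 they were 5 of 8 in M-MDSCs (3.0% of all genes). In PMN-MDSCs, where 9.54% of all genes were called lower under CXD101, 5 of the 8 members other than Ccl12 and Ccl24 were. Ccl12 and Ccl24 brought the calls to 7, but they had entered only through their high vehicle libraries, a filter that favours a lower call. No member was called higher than under vehicle, beside 10.1% and 5.14% of all genes for MS-275 and CXD101 in M-MDSCs and 14.6% and 11.9% in PMN-MDSCs. Over all 10 members, whether tested or not, the median log2 difference was -0.66 and -0.55 in M-MDSCs and -0.83 and -1.17 in PMN-MDSCs for MS-275 and CXD101. Over all genes tested the 4 medians were -0.06, -0.02, -0.03 and -0.03. Within a subset the comparisons with MS-275 and CXD101 share their vehicle libraries. Without PMN-MDSC vehicle replicate 1 or 2, the 7 calls for CXD101 became 5, because Ccl12 and Ccl24 then no longer met the filter.

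**Figure D2:**
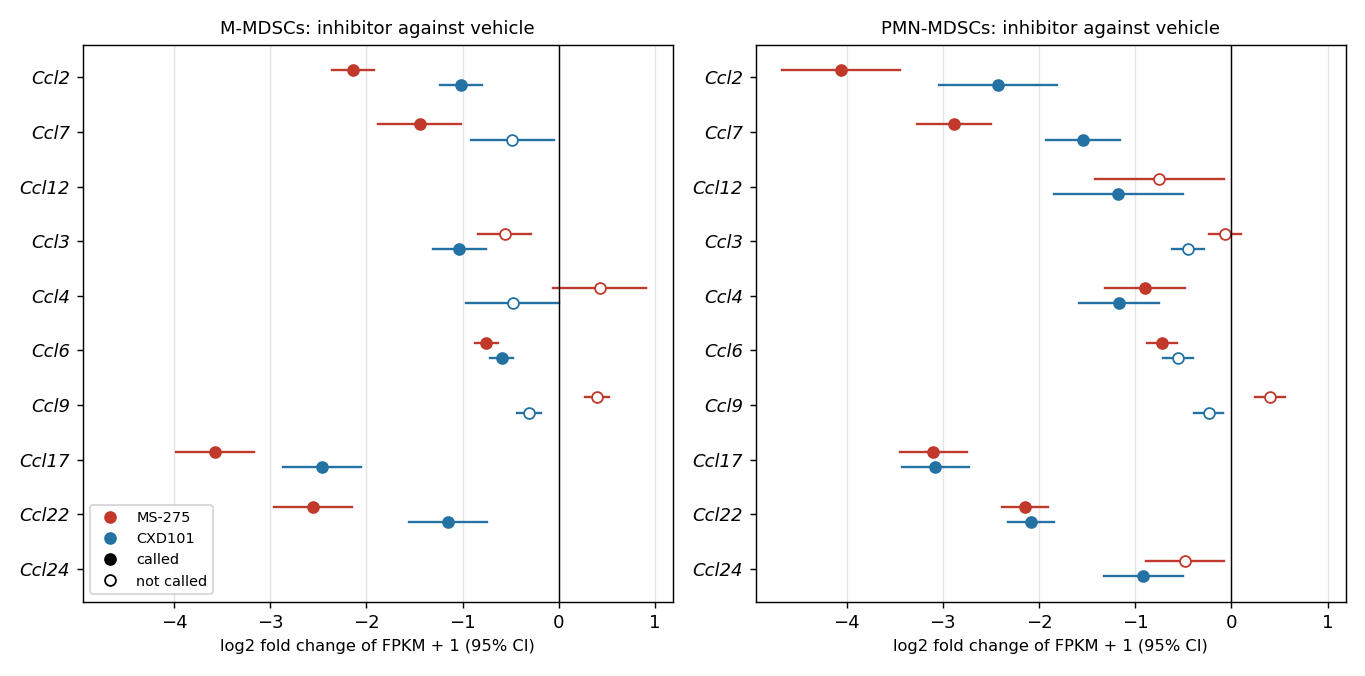
Change of each ligand gene under MS-275 (red) and CXD101 (blue) against vehicle in M-MDSCs (left) and PMN-MDSCs (right) as log2 fold change of FPKM + 1, with 95% confidence intervals from limma. Filled points passed the adjusted p and fold change limits, and Ccl12 and Ccl24, not tested in M-MDSCs, have no point at left. Ccl17, Ccl22 and Ccl2 are filled under both inhibitors in both panels, and Ccl9 is the only gene with points on opposite sides of 0 for the 2 inhibitors in both panels.

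MS-275 and CXD101 were given at the same dose and schedule and were compared directly within each subset, in 1 pair of compounds. Most members differed between the compounds in M-MDSCs. Ccl2 (-1.13, SE 0.0952, adjusted p = 0.000553), Ccl17 (-1.12, SE 0.177, adjusted p = 0.00687), Ccl22 (-1.40, SE 0.178, adjusted p = 0.00306) and Ccl7 (-0.96, SE 0.188, adjusted p = 0.015) were lower under MS-275. Ccl9 (0.71, SE 0.0547, adjusted p = 0.000485) and Ccl4 (0.90, SE 0.21, adjusted p = 0.0274) were higher. These were 4 of 8 lower and 2 of 8 higher, beside 1.17% and 3.22% of all genes and 4.40% in either direction. Ccl3 differed by 0.47 (95% CI 0.20 to 0.75) and Ccl6 by -0.16 (95% CI -0.28 to -0.04), and neither was called. The calls for Ccl7 and Ccl4 depended on single libraries. Ccl7 was lost without either MS-275 library or without CXD101 replicate 1 (adjusted p up to 0.0843), and Ccl4 without either MS-275 library or without CXD101 replicate 2 (adjusted p up to 0.114).

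In PMN-MDSCs, 3 of 10 members were called between the compounds, beside 0.805% of all genes (0.340% lower, 0.465% higher). Ccl2 (-1.63, SE 0.263, adjusted p = 0.0379) and Ccl7 (-1.34, SE 0.166, adjusted p = 0.0233) were lower, and Ccl9 (0.64, SE 0.0657, adjusted p = 0.013) was higher with MS-275 than with CXD101. Ccl17 and Ccl22 did not pass, with differences of -0.02 (95% CI -0.37 to 0.33) and -0.06 (95% CI -0.30 to 0.18). Nor did Ccl3 (0.38, 95% CI 0.21 to 0.55, adjusted p = 0.0597), Ccl4 (0.27, 95% CI -0.15 to 0.68) and Ccl6 (-0.17, 95% CI -0.32 to -0.008). The low genes Ccl12 and Ccl24 differed by 0.42 (95% CI -0.25 to 1.09) and 0.43 (95% CI 0.03 to 0.84, adjusted p = 0.298), and neither passed. All 3 calls rested on few libraries: without PMN-MDSC CXD101 replicate 1 or replicate 2 none passed, while without MS-275 replicate 1 and replicate 2 there were 1 and 2. The signs of the 3 differences did not change in any of these fits.

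PMN-MDSCs held more ligand RNA than M-MDSCs under vehicle. Ccl3 (2.53, SE 0.112, adjusted p = 2.29e-08), Ccl22 (2.09, adjusted p = 1.26e-06), Ccl4 (2.07, adjusted p = 2.03e-05), Ccl6 (2.04, SE 0.0543, adjusted p = 1.25e-09), Ccl17 (1.76, adjusted p = 1.41e-05), Ccl7 (1.47, adjusted p = 4.58e-05) and Ccl2 (1.40, adjusted p = 0.000341) were higher on the log2 scale. These were 7 members, beside 17.2% of all genes called higher in PMN-MDSCs. Ccl12 was also called (0.73, adjusted p = 0.028), but it entered only through the PMN-MDSC vehicle libraries. Ccl9 was 0.25 higher (95% CI 0.12 to 0.37) and Ccl24 0.33 higher (95% CI -0.03 to 0.69), and neither was called. The Ccl12 call was lost without M-MDSC vehicle replicate 1 or 2 (adjusted p = 0.0916 and 0.0840).

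The ratio of the subset means was then set side by side across treatments. Mean Ccl6 in PMN-MDSCs was 4.13, 4.23 and 4.23 times that in M-MDSCs under vehicle, MS-275 and CXD101. Mean Ccl2 was 2.69 times as high in PMN-MDSCs under vehicle but 0.697 times under MS-275 and 0.989 times under CXD101. For Ccl7 the same ratios were 3.36, 1.07 and 1.51, and for Ccl4 they were 4.40, 1.70 and 2.66. The ratio for Ccl17 went from 3.41 to 6.59 under MS-275 and 2.46 under CXD101, and that for Ccl22 from 4.50 to 8.91 and 2.46. Not all of these shifts passed the test of the difference between responses.

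The difference between the responses of the subsets was tested as an interaction over all 12 libraries. The response to MS-275 was more negative in PMN-MDSCs for Ccl2 (-1.91, SE 0.326, adjusted p = 0.00165), Ccl7 (-1.44, SE 0.26, adjusted p = 0.00228) and Ccl4 (-1.33, SE 0.329, adjusted p = 0.012), 3 of 10 beside 9.48% of all genes. The response to CXD101 was more negative for Ccl2 (-1.41, SE 0.326, adjusted p = 0.0107), Ccl7 (-1.06, SE 0.26, adjusted p = 0.0141) and Ccl22 (-0.93, SE 0.228, adjusted p = 0.0141), 3 of 10 beside 6.59%. Ccl6 and Ccl9 had interactions of at most 0.07, with 95% intervals within -0.18 to 0.25. For Ccl3 the interaction was 0.49 for MS-275 (adjusted p = 0.0380) and 0.58 for CXD101 (adjusted p = 0.0225), both short of the fold change limit. For Ccl17 the interaction was 0.48 (95% CI -0.11 to 1.07) for MS-275 and -0.62 (95% CI -1.21 to -0.03, adjusted p = 0.118) for CXD101, and neither passed. The Ccl22 interaction with MS-275 (0.41, 95% CI -0.10 to 0.91, adjusted p = 0.203) and the Ccl4 interaction with CXD101 (-0.69, 95% CI -1.42 to 0.04, adjusted p = 0.155) did not pass either. For Ccl12 the values were -0.87 (adjusted p = 0.0943) and -0.71 (adjusted p = 0.183) for MS-275 and CXD101, and for Ccl24 they were 0.04 (adjusted p = 0.908) and -0.40 (adjusted p = 0.238).

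**Figure D3:**
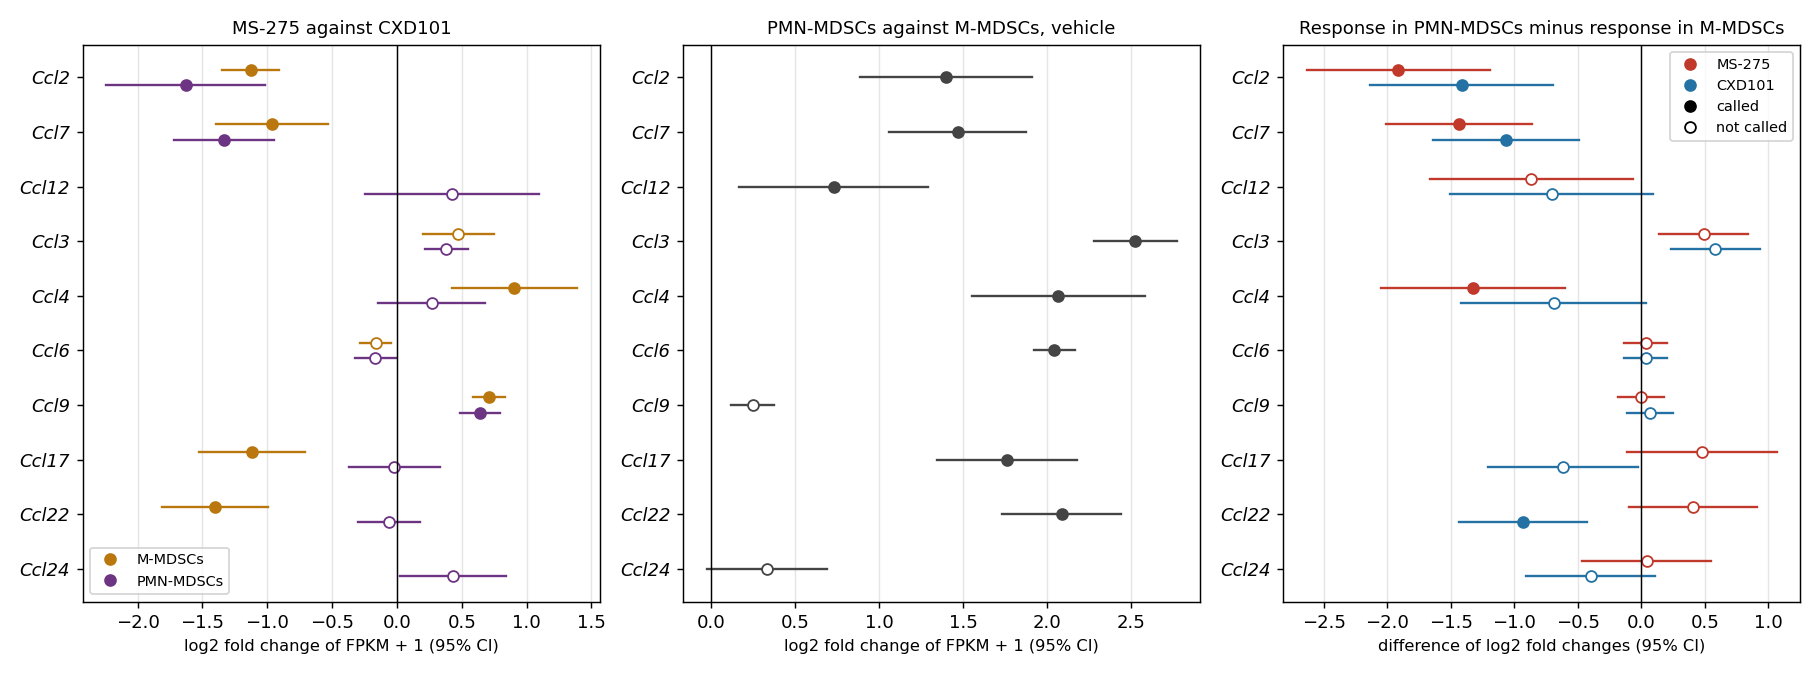
Difference of each ligand gene between MS-275 and CXD101 within each subset (left), between PMN-MDSCs and M-MDSCs under vehicle (middle), and between the responses of the subsets to each inhibitor (right), on the log2(FPKM + 1) scale with 95% confidence intervals from limma. Filled points passed the adjusted p and fold change limits. Ccl2 and Ccl7 are filled and below 0 for both inhibitors in the right panel, whereas Ccl6 and Ccl9 lie near 0 there.

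Markers of cell types moved in different directions under the inhibitors. Of 10 dendritic cell markers, 5 were tested in M-MDSCs, with 4 lower under MS-275 and 5 under CXD101, beside 7.32% and 3.0% of all genes. In PMN-MDSCs 6 were tested, with 6 lower under each inhibitor, beside 14.2% and 9.54% of all genes. Cd209a was among those 6 but had entered only through its vehicle libraries, a filter that favours a lower call. The same limit holds in M-MDSCs for Ccr7 and Fscn1, whose treated libraries alone would not have met the filter. Over the 10 markers, summed FPKM was 192 to 204 in vehicle M-MDSCs, 86.6 to 90.8 under MS-275 and 67.8 to 77.7 under CXD101. It was 463 to 590.4 in vehicle PMN-MDSCs and 204 to 230.0 in the treated ones. Cd74, at 148 to 161 FPKM in vehicle M-MDSCs and 353 to 440.05 in vehicle PMN-MDSCs, made up most of that sum, and monocytes and macrophages express it too. Ccr7, a marker of migrating dendritic cells, was 1.99 and 2.46 FPKM in vehicle M-MDSCs and 0.600 and 0.316 under MS-275, and 9.77 and 8.28 in vehicle PMN-MDSCs and 2.14 and 2.38 under MS-275. Flt3, Zbtb46 and Xcr1, defining markers, were at most 0.806 FPKM in any library, and Clec9a at most 1.18.

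Of 10 macrophage markers, 6 were lower under MS-275 and 4 under CXD101 in M-MDSCs, beside 7.32% and 3.0% of all genes. In PMN-MDSCs 8 were lower under each inhibitor, beside 14.2% and 9.54%, and 1 was higher under MS-275, beside 14.6%. C1qa, 1 of the 10, had entered the test in both subsets only through its vehicle libraries. The sum of the 10 markers was 568 to 582 FPKM in vehicle M-MDSCs, 472 to 499 under MS-275 and 518 to 528 under CXD101. In PMN-MDSCs it was 1129 to 1315 under vehicle, 478 to 521 under MS-275 and 517 to 562 under CXD101. Cd68 and Gpnmb made up most of that sum. Cd68 was 321 to 339 FPKM in vehicle M-MDSCs and 484 to 537 in vehicle PMN-MDSCs, and Gpnmb was 117 to 126 and 452 to 568. C1qb, a complement gene of tissue macrophages, was 15.5 and 13.97 FPKM in vehicle M-MDSCs, 0.501 and 0.760 under MS-275, and 4.63 and 3.59 under CXD101. In PMN-MDSCs C1qb was 23.7 and 18.8 FPKM under vehicle, 0.608 and 0.288 under MS-275, and 3.93 and 1.79 under CXD101. Other markers of the list went up. Apoe, the 1 called higher, had means of 15.1 FPKM in vehicle PMN-MDSCs and 48.2 under MS-275. In M-MDSCs the means of Apoe, Adgre1 and Gpnmb were 3.62, 40.2 and 122 FPKM under vehicle. Under MS-275 they were 5.70, 56.1 and 152, and none of these was called higher. Of 7 neutrophil markers, 5 rose in each of the 4 comparisons with vehicle. Of all genes, 10.1% and 5.14% were called higher under MS-275 and CXD101 in M-MDSCs, and 14.6% and 11.9% in PMN-MDSCs. The neutrophil sum went from 10698 to 11486 up to 21027 to 25577 in M-MDSCs and from 69089 to 94886 up to 235173 to 269164 in PMN-MDSCs. S100a8 and S100a9 made up most of that sum, at means of 6063 and 4892 FPKM in vehicle M-MDSCs and 44405 and 35180 in vehicle PMN-MDSCs. Mmp9, a granule protease of the same list, went the other way, from 7.27 and 10.4 FPKM in vehicle M-MDSCs to 2.61 and 4.65 under MS-275 and 4.32 and 4.95 under CXD101. In PMN-MDSCs it went from 979 and 1144 to 668 and 681 under MS-275 and 695 and 724 under CXD101. Mmp9 was called lower in each comparison but that of CXD101 in PMN-MDSCs (-0.58, adjusted p = 0.000977). Retnlg, also of that list, had means of 3.39 FPKM in vehicle M-MDSCs, 2.96 under MS-275 and 3.11 under CXD101, and was not called there. Of 7 monocyte markers, 5 were tested in M-MDSCs and 6 in PMN-MDSCs, and their calls split. Ly6c2 was called higher and Vcan lower under both inhibitors in both subsets. F13a1 was also higher under CXD101 in M-MDSCs, and Csf1r and Cx3cr1 were also lower under both inhibitors in PMN-MDSCs. Cx3cr1 had entered that test only through its vehicle libraries.

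Basophil and mast cell markers differed between the inhibitors in PMN-MDSCs. Of 7 listed, 6 were tested there, with 5 lower under MS-275 (median log2 difference -1.01), beside 14.2% of all genes. None was called under CXD101 (median -0.13), and 3 were lower under MS-275 than under CXD101, beside 0.340% of all genes. Their summed FPKM was 71.5 to 96.3 under vehicle, 28.5 to 33.0 under MS-275 and 78.1 to 78.4 under CXD101. Mcpt8, a basophil protease, was 27.4 and 36.9 FPKM under vehicle, 10.3 and 14.04 under MS-275, and 27.7 and 27.8 under CXD101. In M-MDSCs 4 were tested, with 2 higher under MS-275 and 1 under CXD101, beside 10.1% and 5.14% of all genes. Of these 4, Gata2 had entered only through its treated libraries. The sum of the list in M-MDSCs was 9.84 to 13.96 FPKM under vehicle and 15.1 to 27.8 under the inhibitors.

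Of 10 lymphocyte and NK cell markers, 1 was tested in M-MDSCs and 3 in PMN-MDSCs. Nkg7 rose from 6.01 to 9.19 FPKM in vehicle M-MDSCs to 27.9 to 72.7 in treated ones and from 1.10 to 1.70 to 26.5 to 41.7 in PMN-MDSCs. Cd3d, a T cell receptor subunit, was 0.199 and 0.717 FPKM in vehicle PMN-MDSCs, 2.32 and 2.31 under MS-275, and 2.17 and 1.82 under CXD101, called higher under both (1.21 and 1.06, adjusted p = 0.00161 and 0.00398) after entering only through its treated libraries. Cd79a, a B cell gene, was called lower under MS-275 there (-0.95, adjusted p = 0.0216). Cd3e, Cd8a, Cd4 and Ncr1 stayed at or below 0.282 FPKM in every library. The part of these cell types in the ligand differences was not tested.

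**Figure D4:**
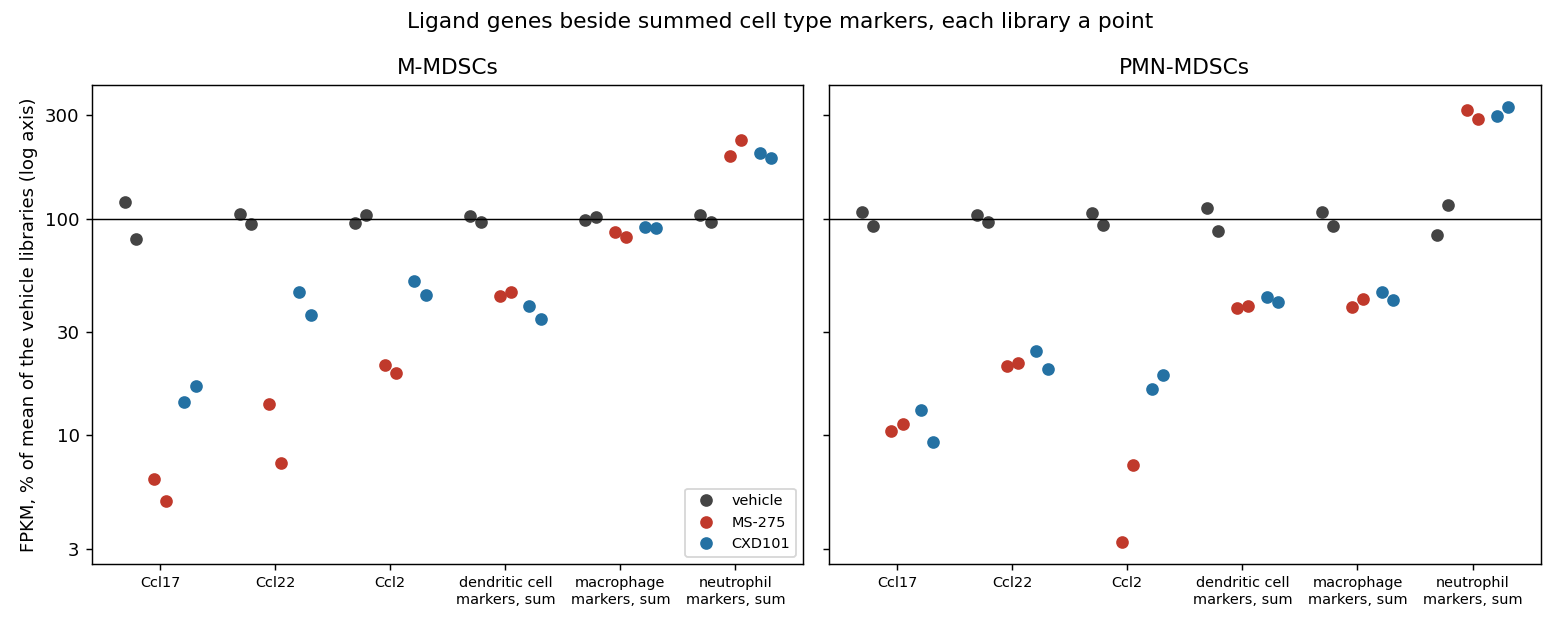
FPKM of Ccl17, Ccl22 and Ccl2 beside the summed FPKM of dendritic cell, macrophage and neutrophil markers, as a percentage of the mean of the vehicle libraries of the same subset on a log axis, each point being 1 library. The dendritic cell sum is at 34.3 to 46.0% of vehicle in treated libraries of both subsets, the macrophage sum is at 82.0 to 91.9% in M-MDSCs and 39.1 to 46.0% in PMN-MDSCs, and Ccl17 lies below both sums in every treated library. The sums are mostly Cd74 for dendritic cells, Cd68 with Gpnmb for macrophages and S100a8 with S100a9 for neutrophils, so they do not show how far single markers fell or rose.

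The remaining CC ligands were mostly silent. Of 13 listed, 3 reached the filter, and Ccl1, Ccl8, Ccl11, Ccl20, Ccl26 and all 3 Ccl21 genes were at 0 in every library. Ccl5, a T cell attractant, was 10.3 and 11.9 FPKM in vehicle PMN-MDSCs, 7.55 and 6.78 under MS-275, and 4.61 and 4.68 under CXD101, and it fell by 1.10 under CXD101 (adjusted p = 0.000302). Ccl27a, an uncertain value because the mouse genome holds close copies of this gene, was 0.676 and 0.216 FPKM in vehicle M-MDSCs, 4.61 and 3.01 under MS-275, and 3.72 and 1.46 under CXD101. It was called higher there (1.73, adjusted p = 0.00244, and 1.25, adjusted p = 0.0223) after entering the test only through its treated libraries.

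Among 16 CC and atypical receptors, 5 were tested in M-MDSCs and 7 in PMN-MDSCs. Ccr2, the receptor of Ccl2, Ccl7 and Ccl12, was 125 and 124 FPKM under MS-275 and 137 and 125 under CXD101 in M-MDSCs, and its differences from vehicle were -0.19 and -0.12 (adjusted p = 0.0456 and 0.228), neither called. Ccr1, the receptor of Ccl3, Ccl6 and Ccl9, exceeded its M-MDSC level by 1.46 in vehicle PMN-MDSCs (adjusted p = 2.14e-08) and was not called in any comparison with an inhibitor. Ccr4, the receptor of Ccl17 and Ccl22, was at most 1.24 FPKM in any library. Ccr7 fell in all 4 comparisons with vehicle, by 0.72 to 1.62, and was the 1 receptor called against vehicle in M-MDSCs. Its treated M-MDSC libraries alone would not have met the filter. Under MS-275 in PMN-MDSCs 2 of 7 were higher and 2 lower, beside 14.6% and 14.2% of all genes. Ccr10 was 0 and 0 FPKM in vehicle PMN-MDSCs, 1.80 and 2.77 under MS-275, and 1.23 and 1.26 under CXD101, and was called higher under both (adjusted p = 0.000228 and 0.00195). Ccr3 was called higher under MS-275 (0.77, adjusted p = 0.0145), and like Ccr10 it had entered only through treated libraries. Ccrl2, an atypical receptor, fell in PMN-MDSCs from 25.96 and 24.1 FPKM to 14.1 and 14.1 under MS-275 and to 12.8 and 10.51 under CXD101 (adjusted p = 0.000663 and 0.000262).

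Genes of the NF-kB pathway, which drives many chemokine genes, were counted from a list of 13, all tested. In M-MDSCs 4 fell under MS-275 and 2 under CXD101, beside 7.32% and 3.0% of all genes called lower, with median log2 differences of -0.48 and -0.32 over the list. In PMN-MDSCs 3 fell and 1 rose under each inhibitor, with medians of -0.17 and -0.31. Over all genes there, 14.2% and 9.54% were lower and 14.6% and 11.9% higher under MS-275 and CXD101. Relb and Nfkb2, subunits of the noncanonical pathway, fell in all 4 comparisons. Relb was 8.41 and 9.41 FPKM in vehicle M-MDSCs, 2.21 and 2.24 under MS-275, and 3.22 and 3.98 under CXD101, and in PMN-MDSCs it went from 26.6 and 23.3 to 15.5 and 14.3 and to 12.6 and 12.4. Bcl3 and Nfkbid, nuclear regulators of the IkB family, were called lower under MS-275 in M-MDSCs (-0.97, adjusted p = 8.54e-05, and -0.93, adjusted p = 0.00023), and the inhibitor gene Nfkbib was lower under both in PMN-MDSCs (-0.64 and -0.67). Rela and Nfkb1 were not called in any of them. Nfkbiz, an inducible regulator, rose in PMN-MDSCs from 11.7 and 12.7 FPKM to 24.7 and 28.5 under MS-275 and 21.9 and 19.4 under CXD101.

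Inflammatory cytokines and genes of alternative activation moved in both directions. Of 11 cytokine genes, 6 were tested in M-MDSCs and 8 in PMN-MDSCs, and Il6 fell and Il27 rose in all 4 comparisons with vehicle. Il1a was lower under MS-275 in M-MDSCs (-0.80) and under CXD101 in PMN-MDSCs (-0.96), Il1b under CXD101 in M-MDSCs (-0.69), Osm under MS-275 in M-MDSCs (-1.02), and Lif under both in PMN-MDSCs (-0.70 and -0.59). In PMN-MDSCs Il6 and Lif had entered the test only through their vehicle libraries, a filter that favours a lower call. In M-MDSCs the treated libraries of Il6 alone would not have met the filter either. Tnf was not called in any of them. Of 13 genes of alternative activation, 11 were tested in each subset. Mgl2 and Clec10a, lectins of macrophages and dendritic cells, fell in all 4, and Chil3 rose in all 4. Mrc1, the mannose receptor, fell by 2.36 in M-MDSCs and by 3.60 in PMN-MDSCs under MS-275 (adjusted p = 3.50e-06 and 9.04e-07) and by 1.14 under CXD101 in PMN-MDSCs. Arg1, which encodes the arginine-degrading enzyme arginase 1, fell under MS-275 by 1.81 in M-MDSCs (adjusted p = 0.000452) and by 1.66 in PMN-MDSCs (adjusted p = 0.000362), and was not called under CXD101. Calls in the other direction were Pdcd1lg2 under MS-275 in M-MDSCs (0.92), Tgm2 under CXD101 in both subsets (0.62 and 0.76), and Pparg under CXD101 in PMN-MDSCs (0.66). In M-MDSCs Pdcd1lg2 had entered the test only through its treated libraries.

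Genes with the pattern most like each member were ranked by Pearson r on the log2 scale across the 12 libraries among 8408 genes with a mean of at least 5 FPKM. Gabarap, Slc11a1 and Lrp12 were closest to Ccl6 (0.998, 0.997 and 0.997). Cd200r4, Cd53 and Lilrb4a were closest to Ccl3, with r from 0.992 to 0.993. Mvp, Kif1c and Zmiz1 were closest to Ccl17 (0.989, 0.987 and 0.986), and Cers2, Shisa5 and Plk2 to Ccl22 (0.982, 0.981 and 0.979). For Ccl2 they were Fam20c, Anxa5 and Ctsa (0.959, 0.957 and 0.957), and for Ccl7 Slc37a2, Bcar3 and Cd68 (0.970, 0.958 and 0.949). Rab7b, Csf1 and Tgif1 followed Ccl4 (0.952, 0.945 and 0.933), and Ctsl, Fnbp1 and Csf2rb followed Ccl9 (0.946, 0.891 and 0.855). These are the highest values of many, over libraries that share subset, treatment and sort, and are given as a description. Between members the values ran from -0.414 for Ccl2 with Ccl9 to 0.972 for Ccl3 with Ccl6.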

How the data were processed

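Total RNA of sorted M-MDSCs and PMN-MDSCs was made into stranded mRNA libraries and sequenced in single-end mode with 101-base reads. The authors deposited FPKM, listed by gene symbol, for each library separately. Per the labels, TopHat2 2.1.1, Bowtie2 2.2.8, SAMtools 0.1.18 and Cuffdiff 2.2.1 were used with mm10. Filters and the strand setting are not given in the sources used here, and the study's methods describe RNA-seq of M-MDSCs only.

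FPKM values were analysed as deposited in R 4.3.3 with limma 3.58.1 (group means, contrasts, empirical Bayes with an intensity trend) on log2(FPKM + 1), a scale that understates changes of low genes. The filter (2 or more libraries at 1 FPKM or above) kept 11078 genes for M-MDSCs, 11184 for PMN-MDSCs and 11662 for the model of 12 libraries, which served the comparisons between subsets. Adjustment for multiple testing followed Benjamini and Hochberg over all genes of a comparison. Only the fit of MS-275 against vehicle in M-MDSCs was tested on simulated data. FPKM sets a gene against its whole library.

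Reads were estimated from FPKM, with 200 bases taken off the transcript length, at the depth where most low values of single-transcript genes came within 0.03 of a whole number (61.2 to 65.6% of 287 to 325 genes). They entered no test, and limits from a count of 0 cover counting error only.

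By rule, every member is named in every comparison, with pathway genes called against vehicle, receptors of the ligands and the 3 genes most like each member with a mean of at least 1 FPKM. A single receptor gene is not reported here. The members, gene lists and tests were chosen with earlier results of these data known. The main fits did not pair libraries by replicate number. Deviations of same-numbered libraries correlated between groups at -0.126 to 0.179, which cannot tell whether such libraries shared mice. Alternatives covered the pseudocount, filter, scaling, trend, fold change limit, model, replicate block and leaving out each library.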

Additional observations from a re-analysis of the deposited data

Results flagged for a closer look

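The response to an inhibitor differed between PMN-MDSCs and M-MDSCs for 6 pairs of member and inhibitor, by the interaction term of limma over 12 libraries. For MS-275 the log2 response in PMN-MDSCs minus that in M-MDSCs was -1.91 for Ccl2, -1.33 for Ccl4 and -1.44 for Ccl7. For CXD101 it was -1.41 for Ccl2, -0.93 for Ccl22 and -1.06 for Ccl7. The Ccl2 and MS-275 values were called under all 20 alternatives that could be computed, as were those of Ccl4 and Ccl7 with MS-275 and of Ccl2 with CXD101. Ccl7 was near the limit of detection under MS-275 in both subsets, so the size of that interaction depends on its vehicle levels. The CXD101 values of Ccl22 and Ccl7 were called under 16 of 20. Ccl22 was lost with a pseudocount of 0.1, with a fold change limit of 2, without M-MDSC CXD101 replicate 1 and without PMN-MDSC CXD101 replicate 2 (adjusted p up to 0.0732). Ccl7 was lost with a pseudocount of 0.1, without M-MDSC vehicle replicate 2, without M-MDSC CXD101 replicate 1 and without PMN-MDSC CXD101 replicate 2 (adjusted p up to 0.0563).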

How the results depend on the processing

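The calls of Ccl17, Ccl22 and Ccl2 against vehicle, and of Ccl7 except under CXD101 in M-MDSCs, held under every alternative computed. Of 150 alternative counts of members called, 143 stayed within 1.5 times the reported count. The MS-275 interaction gave 5 members with a pseudocount of 0.1, against 3. Between MS-275 and CXD101, PMN-MDSCs gave 0 without the filter (limma adjusted p = 0.0883 for Ccl7, 0.140 for Ccl2 and 0.0678 for Ccl9) and 1 without the intensity trend, and 0 to 3 when single libraries were left out, against 3. M-MDSCs gave 3 at a fold change limit of 2, against 6. Signs turned for interactions near 0, those of Ccl9 with MS-275 (-0.00084 with median-of-ratios scaling, -0.15 with quantile normalization) and of Ccl6 (-0.18 for MS-275 and -0.14 for CXD101 with quantile normalization). Leaving out single libraries gave -0.059 to 0.063 for Ccl9 and -0.054 to 0.14 for Ccl24 with MS-275, and -0.0045 to 0.076 for Ccl6 with CXD101. Between the compounds in PMN-MDSCs it gave -0.25 to 0.21 for Ccl17 and -0.19 to 0.069 for Ccl22. The cause was not tested. With the replicate block, the members called were 5, 5 and 6 in M-MDSCs, 6, 7 and 3 in PMN-MDSCs (each inhibitor against vehicle, then between them), 8 between subsets and 3 for each interaction, and no call changed. At an estimated 0 to 7 reads per library, Ccl12 limits what its values can show.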
